A study of Homo sapiens with 4 samples.

Results

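Very broad domains of H3K27ac were places where a peak of at least 8 kb had been called as 1 unbroken interval. They were chosen by the deposited peak width alone: every peak of 8000 bp or more on chromosomes 1 to 22 and X was taken from 3 peak lists, 1 of MDA-MB-231 cells and 2 of Hs578T cells, and overlapping peaks were merged over the lists. This gave 980 domains, which lay in 977 of the 50576 regions into which all peaks of the 3 lists merged, or 1.93% of them. The domains covered 12.4 Mb, which was 0.41% of the length of these chromosomes. Their width ran from 8001 to 88838 bp with a median of 10550.5 bp, and 426 were under 10 kb, 467 were of 10 to 20 kb, 87 were of 20 kb or more and 25 of those reached 30 kb.

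The study asked how the cytokine TWEAK, acting through its receptor Fn14, changes the enhancers of triple-negative breast cancer. MDA-MB-231 and Hs578T are established triple-negative breast cancer cell lines of mesenchymal character. In all 4 libraries, serum-deprived cells (8 h) had received TWEAK at 10 ng/ml for 48 h, with a replenishment part-way by the labels. H3K27ac was then profiled by chromatin immunoprecipitation and sequencing (ChIP-seq) after the cytokine had been washed out. The washout lasted 72 h by the labels and longer by the text of the study. There were 2 libraries per line, named below by line and replicate, and no library of untreated cells or of cells under TWEAK was analysed here, so every value describes the washed-out state. The methods of the study describe the replicates as biological.

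H3K27ac is acetylation of lysine 27 of histone H3, a mark that acetyltransferases such as p300 and CBP place on nucleosomes around active promoters and enhancers. Most marked sites are short, but the mark can spread over many kilobases across clustered enhancers or across the body of a strongly transcribed gene. Broad stretches of this kind are known to lie often at genes that define a cell type or drive a tumour.

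The 4 lists were not alike. On chromosomes 1 to 22 and X, only 209 peaks stood in the list labelled MDA-MB-231 replicate 1, against 43353 in that of MDA-MB-231 replicate 2, and 46330 and 44920 in those of Hs578T replicates 1 and 2, and it was no source of domains. Its only peak of 8 kb or more on these chromosomes, of 8617 bp, lay in the 5S rRNA gene array. MDA-MB-231 was therefore represented by 1 library, and the MDA-MB-231 list below is that of replicate 2. The values of a domain are given for this list first, then for Hs578T replicate 1 and Hs578T replicate 2. The MDA-MB-231 list also overlapped those of Hs578T (Jaccard index of covered bases 0.77 and 0.759) about as closely as they overlapped each other (0.78), so the labels were taken as given and no difference between lines could be tested. Of 6 mesenchymal genes (VIM, CD44, AXL, FN1, SPARC and CAV1), 5, 6 and 5 had a peak within 1 kb of the start site, called a marked start site below, in the 3 lists used, against 5, 4 and 3 of 11 luminal and epithelial genes, of which KRT8, KRT18 and TFF1 were marked in each list. Of 6 leukocyte and endothelial genes, PECAM1 alone was marked, in MDA-MB-231 replicate 2 and Hs578T replicate 1. With 4 libraries an exact two-sided permutation test between lines cannot give a p below 0.333, and read numbers were not used here, so the depth behind each peak is unknown.

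Several of the widest domains lay over microRNA genes far from any protein-coding start site, and the mature microRNAs encoded there are shown because they identify these domains. The sequences are those of RefSeq on GRCh38, written 5′ to 3′ with the seed, bases 2 to 8, in capitals. Those of miR-29a-3p and miR-29b-3p shared the seed AGCACCA, and those of miR-221-3p and miR-222-3p shared GCUACAU.
miR-29a-3p: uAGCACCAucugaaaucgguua
miR-29b-3p: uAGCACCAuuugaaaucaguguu
miR-221-3p: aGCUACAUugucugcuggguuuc
miR-222-3p: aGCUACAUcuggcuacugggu
miR-100-5p: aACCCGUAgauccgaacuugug
let-7a-5p: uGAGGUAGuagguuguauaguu
miR-21-5p: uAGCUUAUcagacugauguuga
miR-23a-3p: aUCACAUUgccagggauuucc
miR-27a-3p: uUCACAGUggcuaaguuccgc
miR-24-3p: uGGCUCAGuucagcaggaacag
miR-30a-5p: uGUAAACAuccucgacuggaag

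The motif searched in the domains was that of AP-1, the dimer of FOS and JUN family proteins that TWEAK signalling is known to activate. It was spelled TGAGTCA and counted on either strand, on which it reads TGACTCA. The windows of 150 bases below hold 2 matches each, in capitals, and are given for the domain of an AP-1 subunit gene and for 3 of the widest domains with few or no protein-coding start sites. They are hg38 sequence on the plus strand. The first lay between genes 7412 bp from the start site of C11orf68, and the second between genes. The third lay in an intron of MIR100HG and the fourth in an intron of UQCC1, and none overlapped an exon. Each held the most matches of the exon-free windows tried in its domain. The same choice gave 2 matches at AOPEP. It gave only 1 at ACTN4, BCL2L1, MYH9, HIF1A, MYOF, SLC2A1, ITGA3, ANXA2 and MIR29A with MIR29B1.
FOSL1 domain (chr11:65911575-65911724): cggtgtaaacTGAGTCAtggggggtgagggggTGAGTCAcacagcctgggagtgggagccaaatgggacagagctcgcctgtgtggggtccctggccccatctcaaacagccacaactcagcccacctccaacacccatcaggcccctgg
MIR221 and MIR222 domain (chrX:45771298-45771447): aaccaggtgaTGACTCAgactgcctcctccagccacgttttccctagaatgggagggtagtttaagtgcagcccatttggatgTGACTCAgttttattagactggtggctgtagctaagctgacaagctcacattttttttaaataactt
MIR100 domain (chr11:122167277-122167426): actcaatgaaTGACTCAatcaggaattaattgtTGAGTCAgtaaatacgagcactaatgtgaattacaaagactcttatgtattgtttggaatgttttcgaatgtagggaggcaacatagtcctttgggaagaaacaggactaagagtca
UQCC1 domain (chr20:35305833-35305982): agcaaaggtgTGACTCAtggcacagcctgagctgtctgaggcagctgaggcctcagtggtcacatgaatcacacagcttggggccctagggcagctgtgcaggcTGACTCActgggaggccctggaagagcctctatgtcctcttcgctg

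The widest domain covered ACTN4, which encodes the actin cross-linker alpha-actinin 4, at chr19:38646881-38735718. Its widest peak measured 50042 bp in the MDA-MB-231 list, 88811 bp in Hs578T replicate 1 and 88507 bp in Hs578T replicate 2. The gene itself is 83941 bp long and lay wholly inside the domain, with 95.4% of it under peaks in the MDA-MB-231 list and 100% in both Hs578T lists. The shorter MDA-MB-231 peak thus did not mean less cover, since 3 peaks there filled 95.6% of the domain. At BCL2L1, which encodes the survival protein BCL-XL, the domain chr20:31660727-31724597 likewise took in the whole gene of 59538 bp, with widest peaks of 34932, 63871 and 63253 bp in the same order. At SLC2A1, the gene of the glucose transporter GLUT1, all 33541 bp lay inside the domain, and the widest peaks were 36633, 36772 and 29134 bp. Hence each of these 3 domains took in a gene from end to end.

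The third by mean width, at chr7:130871130-130922771, held no protein-coding gene but MIR29A and MIR29B1, whose products are known to repress collagen and other matrix genes. Its widest peaks were 51603, 49980 and 48646 bp and were thus nearly even between the lists. The nearest protein-coding start site, of KLF14, was 136923 bp away. The domain over MIR221, MIR222 and their host transcript MIR222HG, at chrX:45734455-45779349, measured 37619, 39918 and 44810 bp, and the nearest protein-coding start site, of DIPK2B, was 533579 bp away. The domain over MIR100 and MIRLET7A2 at chr11:122134266-122183171 had widest peaks of 27136, 29879 and 47887 bp and lay 18051 bp from the start site of BLID. By widest peak, the Hs578T replicates here differed from each other more than Hs578T replicate 1 did from the MDA-MB-231 list. The cover of the domain was 95.4%, 98.1% and 97.9%, so the shorter peaks did not mean much less cover.

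Other domains in the first 15 were at genes of the cytoskeleton, the membrane and the response to low oxygen. At MYH9, the heavy chain of non-muscle myosin IIA, the peaks were 32188, 67788 and 27888 bp. At MYOF, the membrane repair protein myoferlin, they were 31158, 50710 and 28505 bp. At ITGA3, the alpha-3 integrin, they were 22813, 45704 and 25638 bp. In these 3 domains the peak of Hs578T replicate 1 was the longest, and the other Hs578T library was close to the MDA-MB-231 list. HIF1A, the oxygen-regulated transcription factor, had 23355, 47569 and 39945 bp. FOSL1, the gene of the AP-1 subunit FRA1, had 32955, 33692 and 32702 bp in a domain shared with 4 other protein-coding start sites, FIBP, CCDC85B, C11orf68 and DRAP1. The rest of this group lay inside a gene with no start site within 1 kb. Inside AOPEP, an aminopeptidase gene, the peaks were 27240, 36528 and 27243 bp, inside ANXA2, which encodes a phospholipid-binding annexin, 23047, 34706 and 26100 bp, and UQCC1 is described with the domains away from start sites.

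A domain of different make-up was also among the 15 widest. That of 39661 bp at chr1:228608400-228648060 held the genes RNA5S1 to RNA5S17 of the 5S ribosomal RNA array, 17 in all, with peaks of 39562, 39651 and 27491 bp and fold enrichments of 15.6, 4.99 and 4.14. Its GC content was 67.6% against 47.3% over all domains, it held no AP-1 match, and 8 of the 209 peaks in the first MDA-MB-231 list lay there, covering 78.7% of it. The array is made of near-identical copies, so reads cannot be placed in 1 copy with certainty and the width is uncertain.

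**Figure D1:**
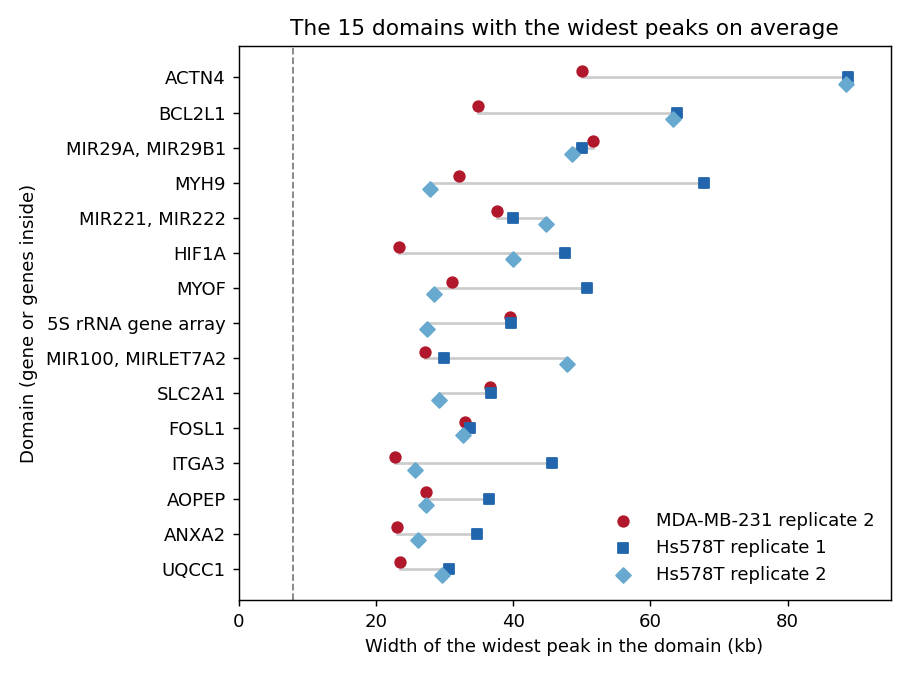
Width in kb (x axis) of the widest peak of each list in the 15 domains with the largest mean width (y axis, by the genes inside or, for AOPEP, ANXA2, HIF1A, MYH9 and UQCC1, overlapped); circles are the MDA-MB-231 list, squares and diamonds Hs578T replicates 1 and 2, the grey bar joins lowest and highest and the dashed line is 8 kb. MIR29A with MIR29B1 and FOSL1 were nearly equal in the 3 lists, while ACTN4 and BCL2L1 were longer in both Hs578T lists and MYH9, MYOF and ITGA3 in Hs578T replicate 1.

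Of the 980 domains, 529 (54%, 95% Wilson interval 50.9 to 57.1, which covers counting error only) reached 8 kb in all 3 lists, 182 did so in 2 lists and 269 in 1 list. Among the latter, 172 reached it in Hs578T replicate 1, 54 in Hs578T replicate 2 and 43 in the MDA-MB-231 list. Of the pairs, 105 domains belonged to both Hs578T lists, 61 to the MDA-MB-231 list with Hs578T replicate 1 and 16 to the MDA-MB-231 list with Hs578T replicate 2. Seen from each list, the 649 domains at 8 kb in the MDA-MB-231 list were also at 8 kb in Hs578T replicate 1 in 90.9% of cases and in Hs578T replicate 2 in 84% of cases. Among the 704 such domains of Hs578T replicate 2, 90.1% were also broad in its partner library and 77.4% in the MDA-MB-231 list, and among the 867 of Hs578T replicate 1 the shares were 73.1% in its partner and 68% in the MDA-MB-231 list. The list with the most domains, Hs578T replicate 1, thus contained about as large a share of the MDA-MB-231 list (90.9%) as of its partner (90.1%). Each Hs578T list shared more of its domains with its partner than with the MDA-MB-231 list. The MDA-MB-231 list had the fewest domains at 8 kb, which limits the share it could hold. The lists differed in the same direction in their totals, since peaks of 8 kb or more made up 1.55% of the MDA-MB-231 list, 1.89% of Hs578T replicate 1 and 1.6% of Hs578T replicate 2. When the 672 widest peaks of every list were taken, 51.5% of the merged domains held a peak of each list.

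Sharing rose with width. Among the 254 domains whose widest peak was of 8 to 9 kb, 20.9% reached the limit in all 3 lists, and this was 49% at 9 to 10 kb, 59.3% at 10 to 12 kb, 65.4% at 12 to 15 kb, 86.7% at 15 to 20 kb and 96.2%, or 75 of 78, at 20 kb or more. Since the limit itself chose the domains, such a rise is in part fixed by the choice and is given as a description. On either side of the limit, 136, 151 and 127 peaks of 7.5 to 8 kb and 99, 128 and 108 peaks of 8 to 8.5 kb were found in the 3 lists. Their median fold enrichments were 14.7, 13.3 and 13.1 just below and 15.1, 14.9 and 12.7 just above, so no break marked the limit.

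**Figure D2:**
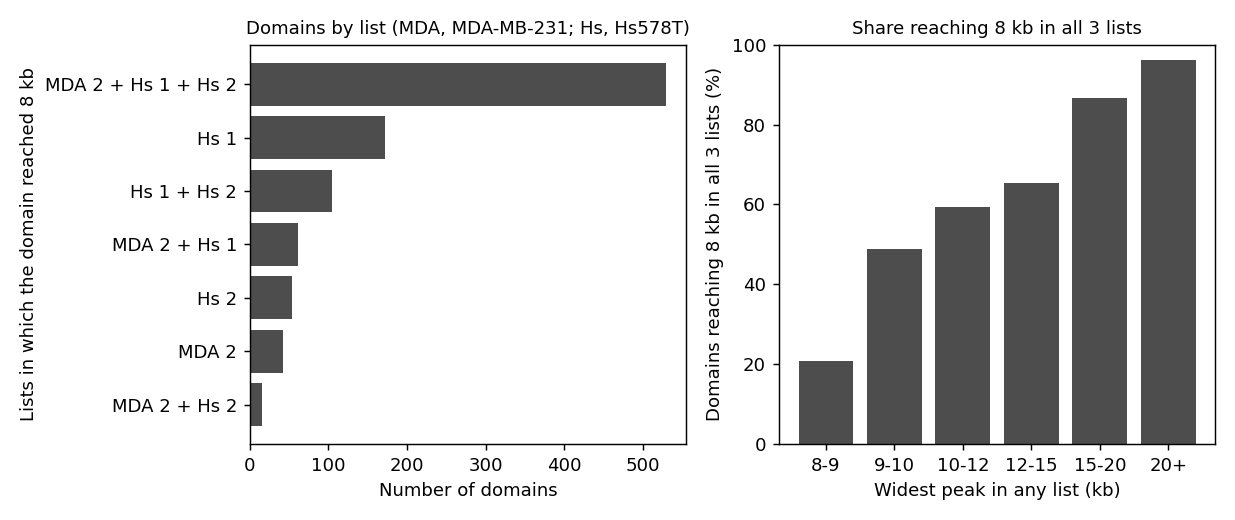
Left, number of domains (x axis) for each set of lists in which the domain reached 8 kb (y axis; MDA, MDA-MB-231, and Hs, Hs578T, with the replicate number); right, percentage of domains that reached 8 kb in all 3 lists (y axis) by the widest peak in any list in kb (x axis). The bar for all 3 lists, 529 domains, is the longest, and the percentage goes from 20.9 to 96.2.

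Where a list did not reach 8 kb, it was seldom empty. Each of the 980 domains held at least 1 peak in every one of the 3 lists, and in 964 of them (98.4%) every list covered at least 50% of the width. Over the 720 cases in which a list had no peak of 8 kb in a domain, a median of 83.2% of the domain was still covered, with a range of 21.1 to 98.6%. In 501 of these cases (69.6%) the list held 2 or more shorter peaks, and in 389 its widest peak was of 6 kb or more. The gaps between such peaks had a median of 1210 bp, and none was under 819 bp. By list, the median cover was 80.8% in 331 domains of the MDA-MB-231 list, 87.3% in 113 of Hs578T replicate 1 and 82.9% in 276 of Hs578T replicate 2. When peaks of a list were joined over gaps of up to 2 kb, 410 of the 720 cases (56.9%) came to 8 kb, and 764 of the 980 domains (78%) then reached it in all 3 lists. When the joining was applied to the choice of domains as well, 1645 domains resulted, of which 55.4% reached 8 kb in all 3 lists, against 54% without joining. A list without a peak of 8 kb thus mostly held shorter or split peaks in the domain.

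**Figure D3:**
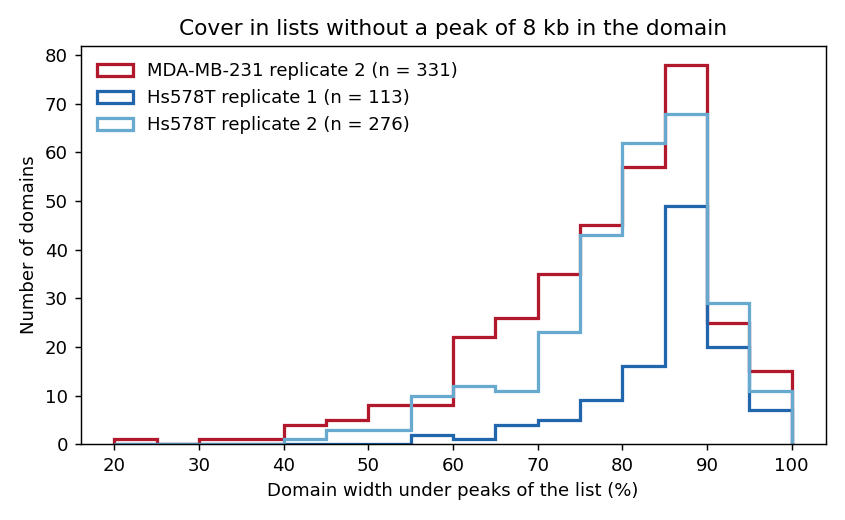
Number of domains (y axis) by the percentage of the domain width that lay under peaks of a list (x axis, bins of 5 points), for domains in which that list had no peak of 8 kb; red, the MDA-MB-231 list, dark blue and light blue, Hs578T replicates 1 and 2. At least 75% was covered in 220 of 331, 101 of 113 and 213 of 276 such domains.

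Where all 3 lists reached 8 kb, the limits of the domains were close between lists. In the domains at 8 kb in all 3 lists, of which 526 to 528 could be compared in each pair, the ends of the widest peaks differed by a median of 243 bp between the Hs578T replicates, and by 262.5 and 266 bp between the MDA-MB-231 list and those of Hs578T replicate 1 and replicate 2. The widths differed by a median factor of 1.05 in each pair, and by 1.5 or more in 7.01% of domains between the Hs578T replicates and in 10.8% and 6.46% between the lines. Within these domains the spread between lines was thus about that between replicates of 1 line. Domains in which any list fell short of 8 kb were left out, so the likeness in width is in part fixed by the choice.

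Domains that differed most by label were few. Measured by cover, 25 domains were at least 25 percentage points lower in the MDA-MB-231 list than in both Hs578T lists, and 4 were as much higher. Against both other lists, 0 domains were as much lower and 36 as much higher in Hs578T replicate 1, and 6 were as much lower and 7 as much higher in Hs578T replicate 2. By any amount, 501 domains were covered less and 192 more in the MDA-MB-231 list than in both Hs578T lists. This list also had the fewest peaks of the 3. The ends of a domain are those of its peaks of 8 kb or more. A list that alone reached 8 kb in a domain thus covered 100% of it by the rule. The counts by cover are therefore in part fixed by the choice of domains. THBS1 encodes the matrix protein thrombospondin 1, and 62.7% of its domain was covered in the MDA-MB-231 list against 100% and 97.4% in the Hs578T lists, with widest peaks of 7032, 20122 and 19592 bp. A domain inside ETS1, the founding member of the ETS transcription factors, at chr11:128492712-128512838, had widest peaks of 6017, 20127 and 17968 bp. The domain at the integrin gene ITGB1 was covered by 67.7%, 98.9% and 97%. In these 3 domains both Hs578T lists were above the MDA-MB-231 list. In the other direction, a domain inside IRAK2, a kinase of interleukin-1 receptor signalling, was covered by 100%, 65.2% and 56.1%, with widest peaks of 12442, 4210 and 4151 bp. A domain inside TGM2, a protein cross-linking enzyme, was covered by 100%, 71.3% and 65.2%. At IRAK2 and TGM2 only the MDA-MB-231 list reached 8 kb, so its 100% followed from the rule. The lowest cover of all, 21.1% in the MDA-MB-231 list, was in a domain partly overlapping GPRC5A, with 31.5% of its width in protein-coding genes. It was covered by 100% in Hs578T replicate 1, which alone reached 8 kb there, and by 53.4% in Hs578T replicate 2. The Hs578T libraries thus also differed. Its widest peaks were weak, with fold enrichments of 2.85, 3.01 and 3.01, against a median of 15.4 for broad peaks of Hs578T replicate 1. TGM2 and GPRC5A were chosen after their values were seen. With 1 usable library of MDA-MB-231, line and library cannot be told apart in any of them.

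Further domains stood at 8 kb in some lists only. At LAMB3, a chain of the basement membrane protein laminin, the peaks were 14296 bp in the MDA-MB-231 list, 7144 bp in Hs578T replicate 1 and 14128 bp in Hs578T replicate 2. At NFKBIZ, an inducible nuclear regulator of NF-κB, they were 4373, 16280 and 3844 bp, and inside the dynein heavy chain gene DYNC1H1 6967, 23272 and 7077 bp. At ANXA5, another annexin, they were 5578, 7955 and 15032 bp, and at MORF4L2, a chromatin protein, 3542, 6478 and 13975 bp. SEPTIN10, of the septin family of filament proteins, had 12386, 6954 and 6683 bp, and the domain overlapping POMZP3 had 19752, 7266 and 8687 bp. ZBTB7A, a transcriptional repressor, had 17112, 11235 and 7072 bp, and the heat-shock gene HSPA1B 10944, 14670 and 6666 bp. HSPA1B has a near-identical copy, HSPA1A, and reads between them may be split. Thus the widest peaks of the Hs578T replicates, too, differed widely at single domains. By cover, these replicates differed most at NFKBIZ (100% and 46.7%) and ANXA5 (71.2% and 100%). The cover was closer at DYNC1H1 (100% and 82.8%) and MORF4L2 (82% and 100%). It was nearly equal at POMZP3 (80.1% and 80.9%) and SEPTIN10 (89.4% and 87.9%).

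Start sites of genes were common in the domains but less dense than in shorter peaks. A start site, taken from the Ensembl canonical transcript of each GENCODE gene, lay within 1 kb of 530 domains (54.1%). The same held for 41.2% of merged regions whose widest peak was of 4 to 8 kb, 37.6% at 2 to 4 kb, 28.9% at 1 to 2 kb and 13.7% under 1 kb. A longer region has more room for a start site, and per length the order was another. This was counted for protein-coding start sites inside the region only. They numbered 38 per Mb of domain, against 62.7 at 4 to 8 kb, 123 at 2 to 4 kb, 163 at 1 to 2 kb and 98.5 under 1 kb. By position, 374 domains (38.2%) held a protein-coding start site, 144 (14.7%) another start site only, 12 (1.22%) had one outside but within 1 kb, 291 (29.7%) had at least 50% of their width in protein-coding genes and 159 (16.2%) lay elsewhere. Domains at 8 kb in all 3 lists made up 57% of the first class, 56.9% of the second, 52.6% of those in a gene and 47.8% of those elsewhere.

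In all, 472 protein-coding genes had their start site in a domain, which was 2.36% of the 19970 genes examined and 4.25% of the 11112 whose start site was marked in all 3 lists. Of these, 262 lay in domains at 8 kb in all 3. For lncRNA genes the share was 1.76% (330 of 18756), and for miRNA genes 2.98% (56 of 1877). Most protein-coding domains held 1 start site (308), and 66 held 2 or more. Those with the most were the FOSL1 domain, a domain of 9072 bp with UQCC3, CSKMT, LBHD1, C11orf98 and a gene without a symbol, a histone cluster of 10294 bp with H2BC13, H2AC13, H3C10, H2AC14 and H2BC14, and a domain of 18903 bp with the calcium-binding S100A3, S100A4, S100A5 and S100A6. The histone domain was even, at 10294, 9770 and 9169 bp, while that of the S100 genes measured 8059, 18903 and 8543 bp. The histone genes are close copies of each other, and their reads may be split. Entire protein-coding genes lay inside 115 domains, 137 genes with a median length of 5151 bp against 27476.5 bp for all. The longest after ACTN4, BCL2L1 and SLC2A1 were SLC37A2, FOSL2 and ERRFI1, a feedback inhibitor of EGFR, with ERRFI1 (21906 bp) wholly under peaks in each list.

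Domains with a start site extended mainly over the transcribed side. In the 275 domains with exactly 1 start site of any gene, a median of 67.9% of the width lay downstream of it (quartiles 40.8 and 85.2), and 184 (66.9%) had over 50% there. With the start sites of protein-coding genes alone, 308 domains gave a median of 75.2% (quartiles 54.8 and 87.7), with 2747.5 bp upstream and 8188 bp downstream, and 246 of them (79.9%) had over 50% downstream. In merged regions with 1 protein-coding start site the median was 55.3% at 1 to 2 kb, 56.7% at 2 to 4 kb and 62.1% at 4 to 8 kb. With 1 start site of any gene it was 55.1%, 57.2% and 62.6%. Over the merged regions the median lean towards the gene body thus rose with width. Each list's own peaks of 8 kb with 1 start site of any gene were also measured. They gave 61.2% in the MDA-MB-231 list, 68.3% in Hs578T replicate 1 and 60.1% in Hs578T replicate 2. Only Hs578T replicate 1 was thus above the 62.6% of merged regions of 4 to 8 kb, and shorter peaks were not measured list by list. At ACTN4, 768 bp lay upstream and 88070 bp downstream of the start site. At MYOF, 2054 bp lay upstream and 50800 bp downstream, although the gene is 175906 bp long and 28.9% of it was covered. ITGA3 was less one-sided, with 12758 bp upstream and 32946 bp downstream.

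**Figure D4:**
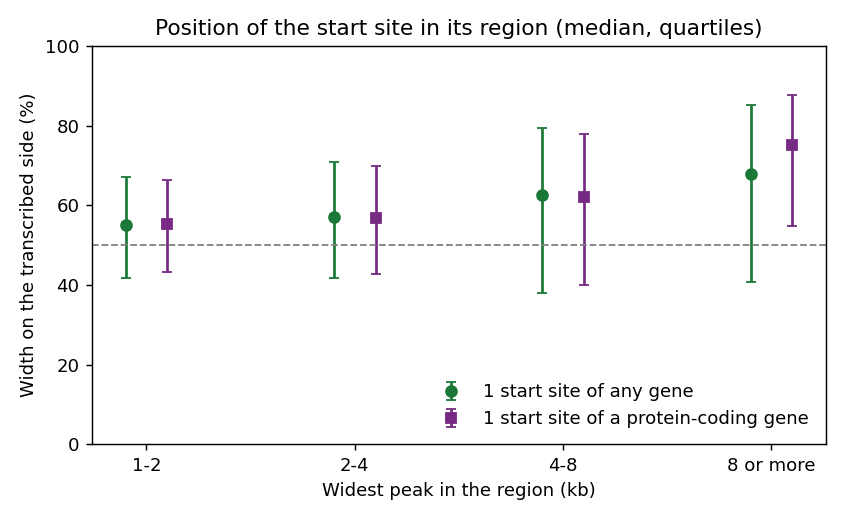
Percentage of the region width on the transcribed side of its start site (y axis; points, median, and bars, quartiles) by the widest peak of the region in kb (x axis), for regions with exactly 1 start site of any gene (green circles) or of a protein-coding gene (purple squares); the dashed line is 50%. For protein-coding genes the median goes from 55.3% at 1 to 2 kb to 75.2% in domains of 8 kb or more.

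Gene lists were then read against the 2.36% of protein-coding genes in a domain, which here means that the start site lay inside it. The widths given are those of the widest peak in the domain, which was not always the peak over the start site. AP-1 proteins bind as dimers of FOS and JUN members, and small MAF proteins as partners of related factors. In this list 3 of 13 start sites were in a domain, FOSL1, FOSL2 and MAFK, while FOS, FOSB, JUN, JUNB, JUND, ATF3, BATF, MAFF and MAFG were marked in all 3 lists outside domains and BATF3 was not. FOSL2 had widest peaks of 13734, 15592 and 15632 bp. MAFK had 9078, 9305 and 3966 bp, and so fell short in Hs578T replicate 2.

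The Hippo pathway ends in YAP1 and WWTR1 (TAZ), coactivators that bind DNA through the TEAD factors. Start sites of 5 of 12 listed genes were in a domain, each at 8 kb in all 3 lists. CCN1, a secreted matrix protein, had widest peaks of 11196, 11473 and 11189 bp with fold enrichments of 46.8, 47.1 and 37.5. CCN2, its paralog and also known as CTGF, had 8102, 8744 and 8236 bp. ANKRD1, a muscle ankyrin-repeat protein, had 12487, 12390 and 12613 bp. AMOTL2 had 22309, 23693 and 22278 bp and AJUBA 11498, 16655 and 12658 bp, and both encode regulators that feed back on the pathway. The start sites of YAP1, WWTR1, TEAD1, TEAD2, TEAD3, TEAD4 and LATS2 were marked in all 3 lists but were in no domain.

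In the TGF-beta pathway, 4 of 15 start sites were in a domain. Among them were the ligand gene TGFB2 (10232, 8492 and 10537 bp), the signal transducer SMAD3 (7015, 19127 and 9303 bp) and the target THBS1. Over the SMAD3 start site itself the peak of Hs578T replicate 2 was 7384 bp wide. The receptors TGFBR1, TGFBR2 and TGFBR3 and the inhibitors SMAD6, SMAD7, SKI and SKIL were marked in all 3 lists without being in a domain. None of the 7 transcription factors of the epithelial-to-mesenchymal transition was in a domain, and of these SNAI2, ZEB1 and ZEB2 were marked in all 3 lists while SNAI1, TWIST1, TWIST2 and PRRX1 did not.

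Among genes of the cytoskeleton and adhesion, 8 of 21 were in a domain. VIM, the mesenchymal intermediate filament, had 13203, 13413 and 13451 bp, and CAV1, the coat protein of caveolae, had 8604, 8769 and 8773 bp. LMNA, the nuclear lamin A, had 20531, 20325 and 22912 bp, and the widths of these 3 genes were alike in all lists. FLNA, an actin cross-linking filamin, had 10614, 21155 and 10766 bp and was longest in Hs578T replicate 1. ACTN4, ITGA3 and ITGB1 were also in the list, and MYH9 had its domain in the gene body and not at the start site. Among receptor kinases and ligands of EGFR, 5 of 11 were in a domain. The receptor kinases AXL (18329, 17181 and 17308 bp) and EPHA2 (23145, 24098 and 23916 bp) and the inhibitor ERRFI1 (25295, 29096 and 27022 bp) were broad in each list. The neighbouring ligand genes EREG (8774, 15065 and 9512 bp) and AREG (7650, 7790 and 8894 bp) were nearer the limit, and EGFR, ERBB2, MET, PDGFRB, HBEGF and TGFA were marked in all lists without a domain. Over the EREG start site itself the peaks were 3948, 15065 and 5022 bp wide.

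NF-κB is the pathway through which TWEAK is best known to act. Of 13 listed genes of NF-κB and inflammation, 2 were in a domain, the survival gene BIRC3 (11747, 8127 and 8118 bp) and the cytokine gene LIF (24925, 24824 and 14484 bp). None of the 5 subunit genes NFKB1, NFKB2, RELA, RELB and REL was, although each was marked in all 3 lists. Of 7 genes of the TWEAK pathway and of the study, TRAF1, an adaptor of TNF receptors, had its start site in a domain (8251, 8564 and 8616 bp). The start sites of TNFSF12, TNFRSF12A, which encodes Fn14, TRAF2, TRAF3, NAMPT and KIF18A were in none. Enhancers away from a start site, such as the one the paper describes downstream of the NAMPT promoter, are outside this count.

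Growth and lineage transcription factors had 7 of 17 start sites in a domain, each at 8 kb in all 3 lists. MYC had 9702, 9574 and 9931 bp. The Krüppel-like factors KLF2 and KLF6 had 8568, 8617 and 8649 bp and 12809, 13101 and 13272 bp. ID1 (9784, 9718 and 9468 bp) and ID3 (9923, 9389 and 9240 bp), inhibitors of basic helix-loop-helix factors, were even over the lists. The chromatin proteins HMGA1 (15537, 16112 and 15128 bp) and HMGA2 (19483, 20162 and 19406 bp) were also even. RUNX1, RUNX2, KLF4, KLF5, KLF10, ETS2, SOX4, SOX9 and EGR1 were marked without a domain.

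Housekeeping genes are active in nearly every cell. Of 12 listed, 5 were in a domain: GAPDH (11363, 12459 and 12553 bp), EEF1A1 (10754, 12674 and 10788 bp), RPLP0 (8528, 8795 and 8237 bp), PPIA (5608, 10030 and 5977 bp) and RPL13A (6836, 7139 and 10567 bp). Over the PPIA start site itself the peaks were 3043, 10030 and 2792 bp wide. Cytosolic ribosomal protein genes, a list added after values were seen and matched by symbol, had 19 of 84 start sites in a domain (22.6%), 8 of them at 8 kb in all 3 lists. These genes have many processed copies in the genome, and reads may be split between them. The lowest cover of a domain over a protein-coding start site in the MDA-MB-231 list, 30.4%, was at RPL23, with peaks of 2589, 8521 and 3940 bp. Most genes of every list but that of the epithelial-to-mesenchymal transition were marked in all 3 lists, and 4.25% of all genes so marked were in a domain. No list was tested against another.

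Of 10 listed noncoding genes, 5 were in a domain, against 1.76% of all lncRNA genes and 2.98% of all miRNA genes. Of the 10, 6 were marked in all 3 lists. MALAT1 had 24468, 23906 and 22388 bp and its neighbour NEAT1, the scaffold of paraspeckles, 17700, 14645 and 14633 bp. The domain at MIR21, the gene of the oncogenic miR-21 within VMP1, was 35874 bp wide, with widest peaks of 22426, 35646 and 14572 bp, and also held a peak of the MDA-MB-231 list left out. MIR22HG had 8792, 6530 and 8793 bp and GAS5 7039, 8294 and 7925 bp. Of the microRNA hairpins in RefSeq, 49 of 1558 (3.14%) lay inside 41 domains, and 35 of them in domains at 8 kb in all 3 lists. Of those printed above with their seeds, the cluster of MIR23A, MIR27A and MIR24-2 lay in a domain of 22872 bp on chromosome 19 with widest peaks of 21742, 22872 and 15662 bp, and MIR30A lay in one of 21530 bp on chromosome 6 with 14108, 21530 and 16282 bp. Besides the pairs named above, miR-93-5p and miR-106b-5p shared a seed (AAAGUGC), and no other seed occurred in more than 1 mature microRNA of the domains. A peak over a hairpin does not show that the microRNA is made.

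Of the 450 domains with no start site within 1 kb, the widest on average were those inside AOPEP, ANXA2, UQCC1, SMAD3 and NRP1. UQCC1, an assembly factor of respiratory complex III, had 23545, 30621 and 29671 bp and the highest fold enrichment of the 15 widest in each list, 42.7, 40.3 and 35.8. The domain inside SMAD3, at chr15:67084781-67112381, had 26549, 27501 and 26452 bp, and was more even than that at the SMAD3 start site. NRP1, a co-receptor of semaphorins and VEGF, had 20432, 33024 and 23410 bp.

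Domains also lay near each other. Within 50 kb of the next, 357 domains (36.4%) formed 149 groups, and 36 groups had 3 or more. SMAD3 carried 5 domains in a stretch of 140262 bp, of which 111275 bp were in domains. HMGA2 carried 5 in 132459 bp, and 6 more lay upstream of it in a stretch of 143280 bp beginning at MSRB3. Other groups of 5 lay from DDX47 to GPRC5A and from PPP1R18 to DDR1, and 6 lay at PRAG1. At SMAD3, 2 of the 5 domains reached 8 kb in all 3 lists. By chromosome the density was highest on chromosome 17, with 0.889 domains per Mb or 3.04 per 100 merged regions, and lowest on chromosome 13, with 0.14 per Mb or 1.25 per 100 regions.

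The AP-1 motif was more frequent in domains than in the genome and less frequent than in shorter peaks. Domains held 0.263 matches per kb, the chromosomes as a whole 0.157 and all other merged regions 0.37. By widest peak the density fell from 0.536 per kb under 1 kb to 0.404, 0.332 and 0.302 at 1 to 2, 2 to 4 and 4 to 8 kb. The same order was seen away from start sites, where it was 0.586, 0.503, 0.413, 0.343 and, in domains, 0.294 per kb. Cut into tiles of 500 bp, 11.9% of domain tiles, 17% of tiles of other regions and 7.4% of all tiles of the chromosomes held a match. A match is a description of the sequence, and no binding was measured. Single domains ranged from 0 (73 domains, 7.45%) to 1.08 per kb, with a median of 0.243. The richest was a domain of 8300 bp some 42204 bp from the start site of AMOTL2, with 9 matches and widest peaks of 8300, 7412 and 7283 bp. Next came domains near CDC42EP3, a regulator of the actin cytoskeleton, at RPS4X and inside ARHGAP26, with 9, 9 and 11 matches. Among the widest domains, MYH9 held 18, ACTN4 15, MIR100 14, MYOF 13, and BCL2L1, UQCC1 and MIR29A with MIR29B1 12 each, which at these widths were 0.169 per kb at ACTN4 and 0.188 per kb at BCL2L1, close to the genome.

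**Figure D5:**
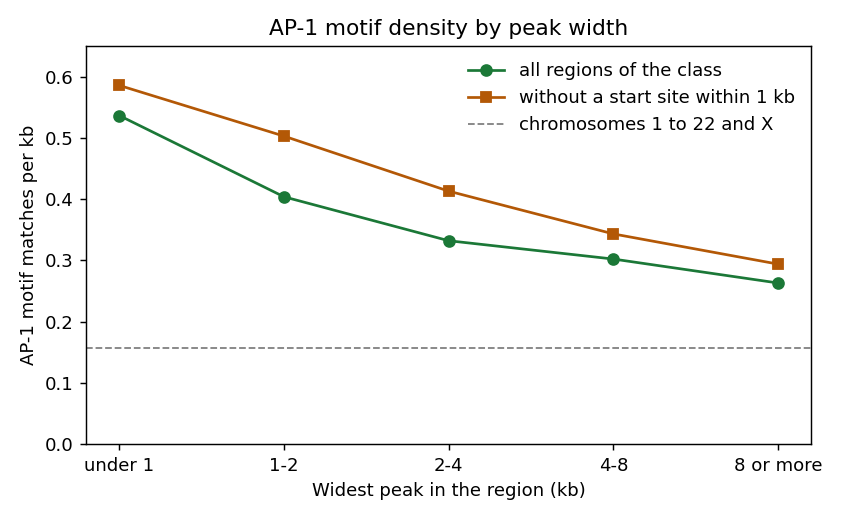
Matches to the AP-1 motif per kb (y axis) by the widest peak of the region in kb (x axis), for all merged regions or domains (green circles) and those without a start site within 1 kb (brown squares); the dashed line is the density over chromosomes 1 to 22 and X, 0.157 per kb. Both curves fall with width, to 0.263 and 0.294 per kb in domains, and stay above the dashed line.

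Peaks of 8 kb or more were also strong for their list. Their fold enrichment over the local background had a median of 17 in the MDA-MB-231 list, 15.4 in Hs578T replicate 1 and 13.7 in Hs578T replicate 2, and the median percentile among all peaks of the list was 92.2, 91.2 and 92.2. Peaks of 4 to 8 kb had medians of 13.9, 12.8 and 11.4 and those under 1 kb 3.47, 3.16 and 3.28, so enrichment rose with width in each list. Below the median of the list were 5, 17 and 11 of the broad peaks. In the MDA-MB-231 list the peak of highest enrichment, 63.4, was 5164 bp wide and was no domain peak, while in the Hs578T lists the highest, 61.1 and 51.4, were domain peaks 9377 and 9982 bp wide. Since width was the rule of choice and both values come from the same reads, this is a description.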

How the data were processed

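H3K27ac ChIP-seq of 4 libraries was analysed, 2 of MDA-MB-231 and 2 of Hs578T, grouped and numbered by their titles. The authors trimmed adaptors (Trimmomatic), mapped reads to hg38 (Bowtie2), called peaks per library with MACS2 with input subtracted, and removed blacklisted regions. Versions and MACS2 settings were not given in the sources used here. Each deposited peak has a start, an end and a score (10 times −log10 q, cut to a whole number). The deposited fold is a ratio over the local background, and the deposited −log10 values are of p and q. Widths, scores and folds are the authors' values for single peaks, and folds were set side by side within a list.

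From these lists, peaks of 8000 bp or more in 3 lists were merged where they shared 1 bp or more. Start sites were those of Ensembl canonical transcripts in GENCODE release 44, on the same assembly (GRCh38). Python 3.11.15 and NumPy 2.4.6 were used, and the interval steps were tested on simulated data. No test across samples was run. Alternatives were other width limits (6 and 10 kb), joined peaks, the 50% of peaks with the highest score, equal list sizes, other start sites and windows, and leaving out each list. The members and gene lists were chosen with earlier results of these data known. Named were the 15 domains with the largest mean widest peak, the 2 widest for each set of 1 or 2 lists, the 5 widest without a start site, the 4 with the most protein-coding start sites, the 4 with the most AP-1 matches per kb, and listed genes in a domain. TGM2, GPRC5A, RPL23, SLC37A2, the microRNAs other than MIR21 and the groups of neighbouring domains were named after their values were seen. Domains were called by a gene inside, else overlapped, else nearest. Some listed genes in a domain are counted but not reported by name here.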

Additional observations from a re-analysis of the deposited data

Results flagged for a closer look

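The list labelled MDA-MB-231 replicate 1 gave no domain, but 8 of its peaks lay in the domain over the 5S rRNA gene array on chromosome 1. They are neighbouring pieces of 1 repeat array and no independent events. Their fold enrichment was between 4.18 and 5.02, and they covered 78.7% of the array. The same list held 4 peaks of 8 kb or more on sequences outside chromosomes 1 to 22 and X, of 10172 to 17423 bp, while the other lists held none there. These sequences were not used for domains, and no control library was analysed here. Copies of repeated genes share reads, and their part in these peaks was not tested.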

How the results depend on the processing

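Of 43 alternative values for 7 results, 26 stayed within the limit set for them, a factor of 1.5 for counts and otherwise the SD over the 3 lists or, for the share at 8 kb in all 3 lists, its Wilson interval. With a limit of 10 kb the number of domains was 536 and with 6 kb 2036, with 275 and 872 protein-coding genes, 56.7% and 50.3% of domains with a start site within 1 kb, and 0.251 and 0.277 AP-1 matches per kb. The share at the limit in all 3 lists was 48.9% with 10 kb. The share of domains with a start site within 1 kb was 59.2% with all basic transcripts, 38.5% with protein-coding genes only and 56.4% with a window of 2.5 kb. The median percentage of width on the transcribed side was 75.2% with protein-coding genes only, and AP-1 matches were 0.278 per kb without sequence within 1 kb of a start site. Leaving out each list in turn gave 821 to 941 domains, 361 to 452 protein-coding genes, 51.4% to 54.2% with a start site, 0.263 to 0.271 AP-1 matches per kb and a median cover of 82.8% to 84.7%, and the lowest counts were those without Hs578T replicate 1. Joining peaks over gaps of up to 2 kb, chosen after seeing the data, gave 1645 domains with 55.4% at 8 kb in all 3 lists. Joining over 500 bp left 980 domains, with 54% at 8 kb in all 3 lists. In lists without a peak of 8 kb in a domain, no gap between their peaks there was under 819 bp. Adding MDA-MB-231 replicate 1, also chosen after seeing the data, left 980 domains, as its only peak of 8 kb or more lay in a domain already. The 26 values within the limit thus include some that did not or could not move. No paired analysis was possible because no result comes from a test and replicate numbers are shared by libraries of different lines. Peak calls move with depth, which is unknown here, and with the caller's joining of peaks, so widths near 8 kb are the least certain.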
